A study of Mus musculus with 2 samples.

Results

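The apolipoproteins are the protein parts of plasma lipoproteins, and the liver secretes most of them. Described here are 10 mouse genes, Apoa1, Apoa2, Apoa4, Apoa5, Apob, Apoc1, Apoc2, Apoc3, Apoe and Apom, chosen by name and read from every probe set that the platform annotation assigns to one of them. They were read by 15 probe sets and make up 10 of the 12393 genes with a probe set of a single gene symbol. Liver RNA was hybridised to Affymetrix arrays, 1 array from mice given a high-fat diet enriched with the unsaponifiable fraction of olive oil, called the orujo array after its title, and 1 from mice given a high-fat diet with olive oil itself, called the olive array. The unsaponifiable fraction holds the minor components of the oil that are not fatty acid esters. Both groups lacked apolipoprotein E, so there was no array from mice with an intact Apoe gene. Mice without this protein have high plasma cholesterol and develop atherosclerosis. Targets were made from about 8 µg of total RNA, per the labels. The sources used here do not give strain background, sex, age, time on the diet, the targeted allele or any pooling of animals.

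Each apolipoprotein has a place in the traffic of lipids. Apob is the structural protein of the triglyceride-rich particles that leave the liver and gut, Apoa1 and Apoa2 are the main proteins of high-density lipoprotein, and the exchangeable C and A-V apolipoproteins regulate lipoprotein lipase. Apoe is the ligand by which remnant particles are taken up again by the liver. Apoe lies beside Apoc1, Apoc4 and Apoc2, and Apoa1 beside Apoc3, Apoa4 and Apoa5, in compact gene clusters.

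Of the 10 apolipoprotein genes, 0 differed at least 2-fold between the arrays, against 2.33% of the 6640 measured genes. By direction, 0 of 10 were 2-fold or more higher on the orujo array, against 1.36% of measured genes, and 0 of 10 lower, against 0.979%. A gene is called measured where its signal exceeded a floor on both arrays. Signals of different probe sets depend on their probes and are not compared as amounts of RNA. The floor, 35.6 signal units, was the 50th percentile of both arrays' signals, and all 10 genes exceeded it on both. The ratios ran from −0.26 for Apob to 0.72 for Apom on the log2 scale, where a positive value means a higher signal on the orujo array. Ratios were positive for 6 genes and negative for 4, and 47.5% of measured genes were positive. The median over the 10 genes was 0.14, against −0.02 over measured genes, but under quantile normalization it was −0.01. With 1 array per diet there is no replicate error and no test was possible, so every ratio describes these arrays and not the diets. In bulk liver RNA, fewer cells of a type and less RNA per cell cannot be told apart.

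The only repeated measurement came from different probe sets of a gene, which share RNA, labelling and hybridisation. Over 2057 genes with at least 2 measured probe sets, their log2 ratios differed with an SD of 0.43, or 0.30 for a single probe set. Where both probe sets exceeded a signal of 1000 on both arrays (69 genes), the SD for a single probe set was 0.21. Of the 10 apolipoprotein genes, 9 had a log2 ratio smaller than 0.30 in size, and 5 a ratio smaller than 0.21, Apoa1 among them by a narrow margin. The exception to the wider limit was Apom. Ratios this small were common: 38.8% of measured genes had a ratio at least as large in size as Apoa5 (0.29). For Apoa1 (0.21) this share was 53.1%. Of the 10 apolipoprotein genes, 8 exceeded the signal of 1000 on both arrays. Among the 374 measured genes that did, the median log2 ratio was 0.01, the SD 0.38, and 3.48% differed at least 2-fold.

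**Figure D1:**
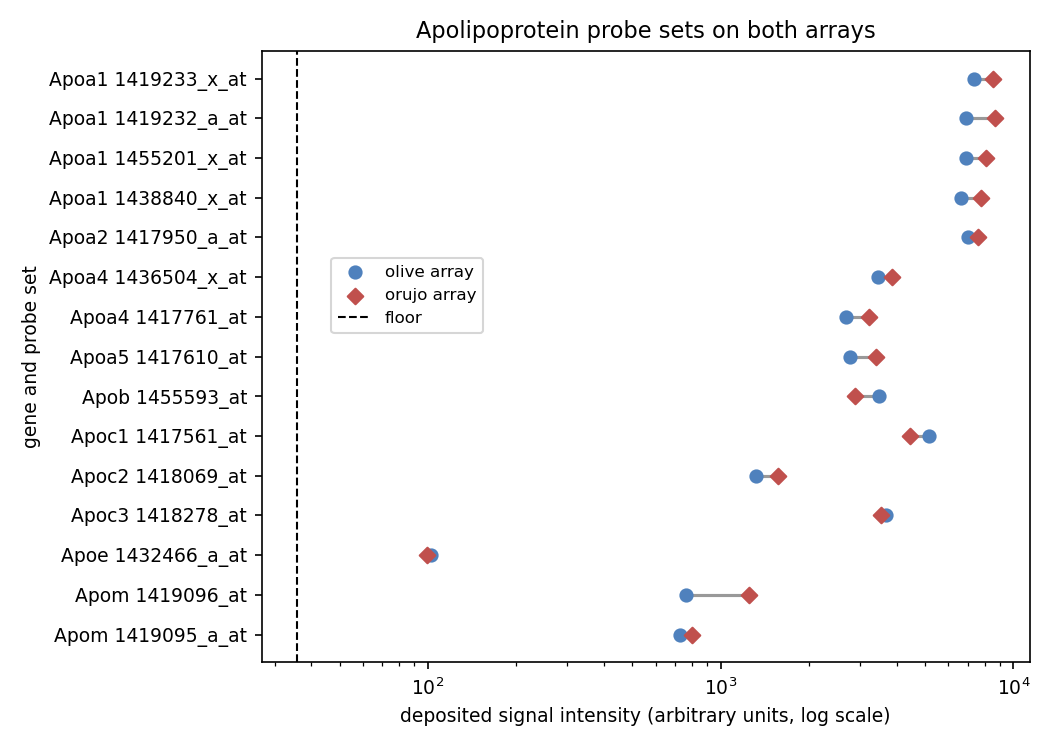
Deposited signal intensity (log axis, arbitrary units) of the 15 probe sets of the 10 apolipoprotein genes on the olive array (circles) and the orujo array (diamonds); the dashed line is the floor of 35.6. Apoe is the single gene near 100 units, and the longest line joins the values of an Apom probe set, 759.7 and 1252.3.

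Promoter windows are shown for the highest ratio (Apom, in its brighter probe set), the next highest (Apoa5) and the lowest (Apob). With its other probe set, at 0.14, Apom would not be the highest. A link between promoter sequence and ratio was not tested. RefSeq windows on GRCm38.p6, from 250 bases before to 50 after a start site, were found for 8 of the 10 genes, in 12 windows. They are printed 5′ to 3′ on the strand of the gene, with TATAAA and TTGCNNAA matches in capitals.
Apom (chr17:35131752-35132051, minus strand): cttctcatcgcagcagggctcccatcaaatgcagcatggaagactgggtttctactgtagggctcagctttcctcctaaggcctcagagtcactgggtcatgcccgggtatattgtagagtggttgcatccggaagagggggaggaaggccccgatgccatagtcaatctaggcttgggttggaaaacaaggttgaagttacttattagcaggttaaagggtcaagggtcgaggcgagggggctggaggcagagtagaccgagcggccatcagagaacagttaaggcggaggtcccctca
Apoa5 (chr9:46268358-46268657, plus strand): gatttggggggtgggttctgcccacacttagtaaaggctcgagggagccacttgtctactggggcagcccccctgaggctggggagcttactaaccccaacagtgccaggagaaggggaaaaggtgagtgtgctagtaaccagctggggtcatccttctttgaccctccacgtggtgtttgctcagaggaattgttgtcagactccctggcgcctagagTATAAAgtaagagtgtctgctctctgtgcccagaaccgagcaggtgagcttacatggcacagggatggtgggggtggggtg
Apob (chr12:7977427-7977726, plus strand): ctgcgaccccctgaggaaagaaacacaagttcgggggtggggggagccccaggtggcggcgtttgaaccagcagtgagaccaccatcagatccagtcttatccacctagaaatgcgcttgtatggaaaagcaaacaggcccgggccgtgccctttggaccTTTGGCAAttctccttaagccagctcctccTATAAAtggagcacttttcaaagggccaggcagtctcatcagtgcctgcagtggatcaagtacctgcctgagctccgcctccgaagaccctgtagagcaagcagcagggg
The Apob window held TATAAA beginning 60 bases before the start and a TTGCNNAA match on the other strand beginning 90 bases before it. The printed Apoa5 window held TATAAA beginning 31 bases before its start. Another Apoa5 window, not printed, overlaps it and holds the same TATAAA, 56 bases before its own start. That match is therefore counted in both windows. The Apom window held neither motif. TATAAA occurred in 5 of the 12 apolipoprotein windows and in 13.6% of 32851 windows of the same length, counting both strands. TTGCNNAA, a core of C/EBP sites, occurred in 2 of 12 and in 10.8%. The HNF4-type string CAAAGTCCA and the string CAAAGGTCA, as in direct repeats of nuclear receptor sites, occurred in 0 of 12 windows and in 0.475% and 0.478% of all. GTTAAT, part of the HNF1 site, occurred in 2 of 12 and in 7.1%, and AGGTCA in 2 of 12 and in 16.3%. AGGTCA lies within CAAAGGTCA. A match describes letters and not a bound site, and several windows of a gene overlap.

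Apoe is the gene these mice lack and could serve as a check of the labels. Its single probe set had a deposited signal of 99.6 on the orujo array and 102.7 on the olive array. These signals were 2.80 and 2.88 times the floor, and higher than 74.7% and 75.3% of probe sets on the 2 arrays. The log2 ratio was −0.04. Where the probe set lies relative to the disrupted part of the gene is not known here, so the residual signal checks neither label. With the floor at the 75th percentile, 101 units, Apoe exceeded it only on the olive array and had no ratio.

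Apoc1 and Apoc2 lie on the same side of Apoe, and both exceeded a signal of 1000 on both arrays. Apoc1, an inhibitor of receptor-mediated remnant uptake, had a signal of 4417.6 on the orujo array and 5134.7 on the olive array. Its log2 ratio was −0.21, a 1.16-fold lower value. Apoc2, the cofactor that activates lipoprotein lipase, had signals of 1565.2 and 1321.5. Its log2 ratio was 0.25, a 1.19-fold higher value. These genes of the same cluster stood on opposite sides of 0, under main processing and under each of the 10 alternatives. Each has a single bright probe set, so the alternatives in probe-set choice and floor percentile could not change these ratios. With main processing both lay within the probe-set SD of 0.30 and outside the 0.21 of probe sets above a signal of 1000. Apoc4, which lies between them and encodes a minor apolipoprotein, had signals of 2359.8 and 2514.5 and a log2 ratio of −0.09.

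Further from Apoe on chromosome 7, in RefSeq gene order, the ratios went both ways. Tomm40, a subunit of the mitochondrial import channel next to Apoe, had signals of 224.8 and 162.9 and a log2 ratio of 0.47. Nectin2, which encodes an adhesion molecule and lies beyond it, was at 0.74 (signals 104.9 and 62.8). Its second probe set was at 0.72 (69.7 and 42.4). Tomm40 and Nectin2 exceed the probe-set SD of 0.30, taken over all measured signals, and both are under 2-fold. Bcam was at −0.48 (58.7 and 82.2), Bcl3 at −0.55 (48.9 and 71.6) and Cblc at −0.04. The signals of Nectin2, Bcam and Bcl3 are low, not far above the floor of 35.6. On the side of Apoc2, Clptm1 was at 0.14, Gemin7 at −0.06 and Trappc6a at 0.25. Over the 9 measured neighbours, Apoc4 included, 4 ratios were positive and 5 negative, and the median was −0.04. Of the 9, 0 differed at least 2-fold, against 2.33% of measured genes. Relb and Clasrp were below the floor on both arrays.

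**Figure D2:**
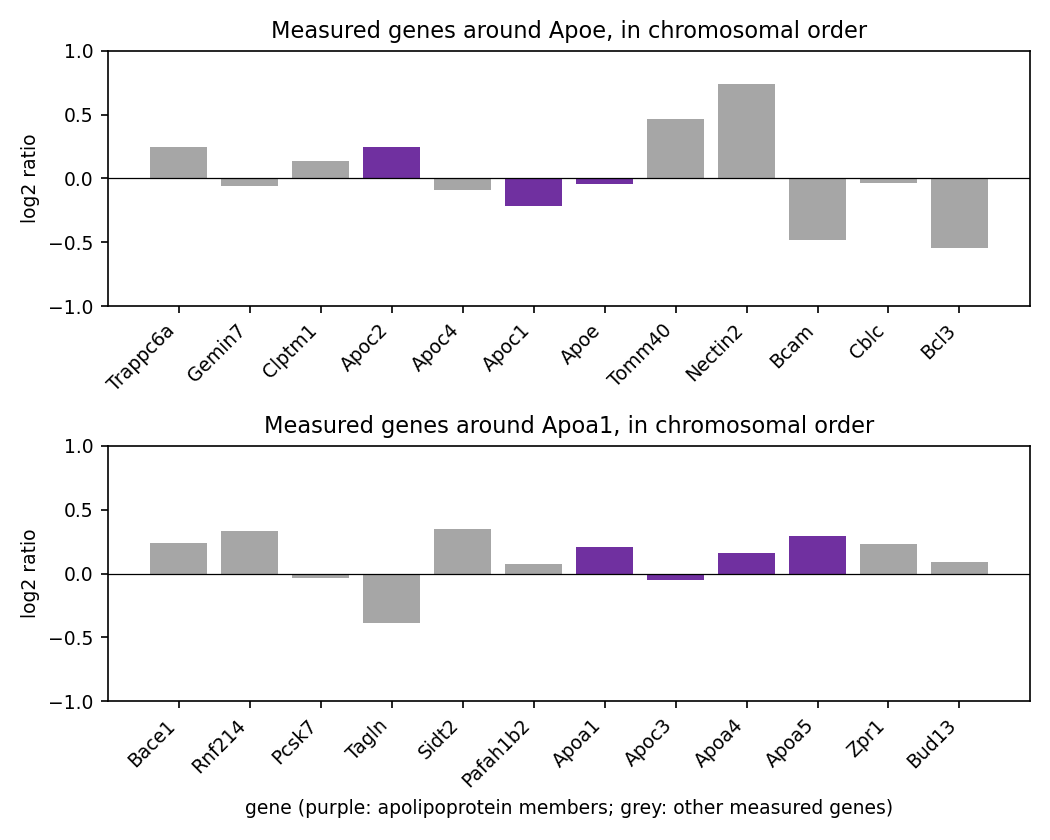
Log2 ratio (orujo minus olive) of measured genes in chromosomal order around Apoe (top) and Apoa1 (bottom); purple bars are apolipoprotein genes described here and grey bars their neighbours, 1 array per diet and no error bars. Bars of both signs occur around Apoe, from Bcl3 at −0.55 to Nectin2 at 0.74, both genes of low signal.

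Among the proteins of high-density lipoprotein, Apoa1 gave the most repeated readings. Apoa1 encodes the main protein of these particles and the activator of lecithin-cholesterol acyltransferase. Its 4 probe sets had signals of 8634.7, 8485.5, 8048.1 and 7729.7 on the orujo array. The same probe sets read 6877.6, 7361.4, 6912.2 and 6644.6 on the olive array. All 4 were higher on the orujo array, with log2 ratios between 0.21 and 0.33, and the brightest by its mean gave 0.21 (1.16-fold). All of them except the probe set at 0.33 carry a suffix that marks sequence shared with other transcripts. Without such probe sets the Apoa1 log2 ratio was 0.33, from that single probe set. The highest signal of the whole orujo array, 8634.7, was an Apoa1 probe set. The sources used here do not say how linear the scanner was at such signals. Under loess and quantile normalization, which use the signal or its rank, the Apoa1 log2 ratio was 0.12 in each.

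Apoa2, the second protein of high-density lipoprotein, had signals of 7580.1 and 7009, a log2 ratio of 0.12 that became −0.02 under quantile normalization. Apom, a lipocalin that carries sphingosine 1-phosphate on high-density lipoprotein, had the highest ratio of the 10 genes in 1 of its 2 probe sets. The brighter probe set read 1252.3 on the orujo array and 759.7 on the olive array. Its log2 ratio was 0.72, a 1.65-fold higher value, and 6.16% of measured genes had a ratio at least as large in either direction. The other probe set read 799.4 and 727 and gave 0.14. The readings of the 2 probe sets thus differed by 0.58, and 16.3% of the 2057 genes with 2 measured probe sets differed by at least as much. Apom was the 1 apolipoprotein gene past 1.5-fold, against 11.1% of measured genes. With the mean of its probe sets or with the dimmer of them, the count past 1.5-fold was 0.

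Apob, the structural protein of very low-density lipoprotein, had the lowest ratio. Its probe set read 2883.1 on the orujo array and 3466.7 on the olive array. The log2 ratio was −0.26, a 1.20-fold lower value, and it was negative under each of the 10 alternatives, between −0.40 and −0.25. Apob has a single bright probe set, so the alternatives in probe-set choice and floor percentile could not change its ratio. Of measured genes, 43.5% had a ratio at least as large in size.

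The regulators of lipoprotein lipase did not share a direction. Apoa5, which favours lipolysis of triglyceride-rich particles, read 3387.4 and 2772.9, a log2 ratio of 0.29 (1.22-fold higher). Apoc3, which inhibits the lipase and remnant uptake, read 3542.3 and 3673.7, a log2 ratio of −0.05. Apoa4, a protein of high-density lipoprotein and chylomicrons, read 3854.9 and 3460.2 in its brighter probe set and 3204.5 and 2681.2 in the other. Their log2 ratios were 0.16 and 0.26, and under quantile normalization the brighter one was 0, since it held the same rank on both arrays. In the cluster on chromosome 9, Apoa1, Apoa4 and Apoa5 thus had positive ratios with the main scaling and Apoc3 a negative one. Beside the cluster, 6 of 8 measured neighbours were positive in their brightest probe sets, against 47.5% of measured genes. The 8 ran from Tagln at −0.38 to Sidt2 at 0.35, with a median of 0.16. Zpr1, next to Apoa5, was at 0.23 and Bud13 at 0.09. Pafah1b2 was at 0.07, Pcsk7 at −0.03, Rnf214 at 0.34 and Bace1 at 0.24. Other measured probe sets gave −0.18 for Zpr1, −0.17 for Rnf214, and −0.22 and 0.30 for Pafah1b2. Those of Bace1 ran from −0.64 to 0.61, so the count of positive neighbours depends on the probe set. The 4 apolipoprotein ratios of this cluster lay inside the range of the neighbours' brightest probe sets, whose signals were between 36.7 and 513.9.

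**Figure D3:**
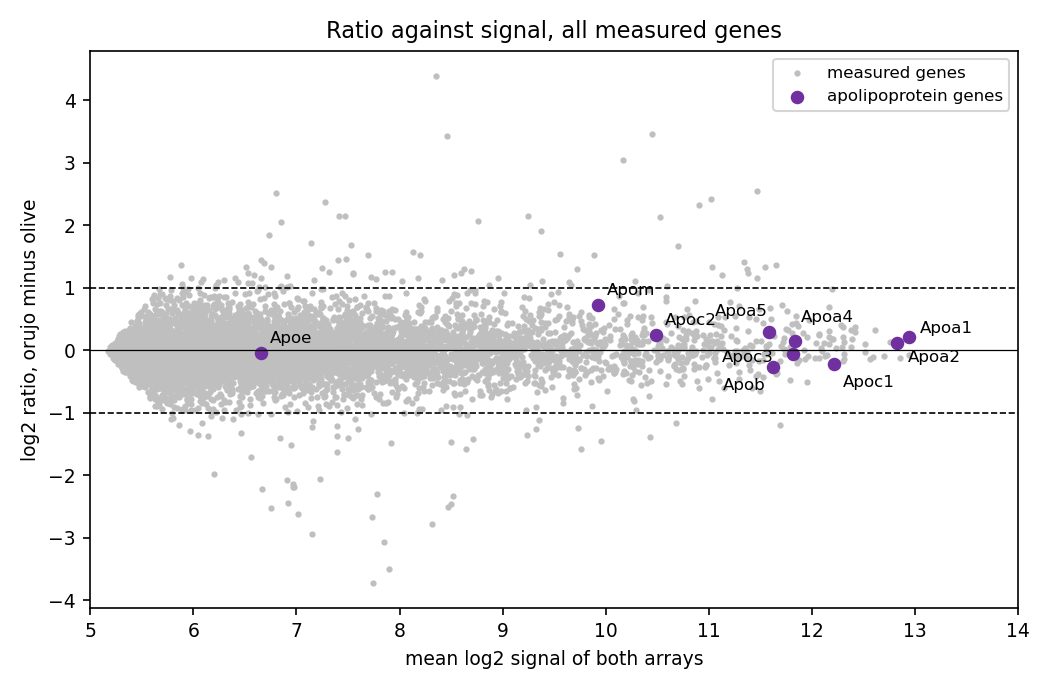
Log2 ratio (orujo minus olive) against mean log2 signal for measured genes (grey) and the 10 apolipoprotein genes (purple, labelled); dashed lines mark 2-fold. The apolipoprotein genes lie inside the lines, Apom highest at 0.72 and Apob lowest at −0.26, and Apoe stands far to the left of the others.

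**Figure D4:**
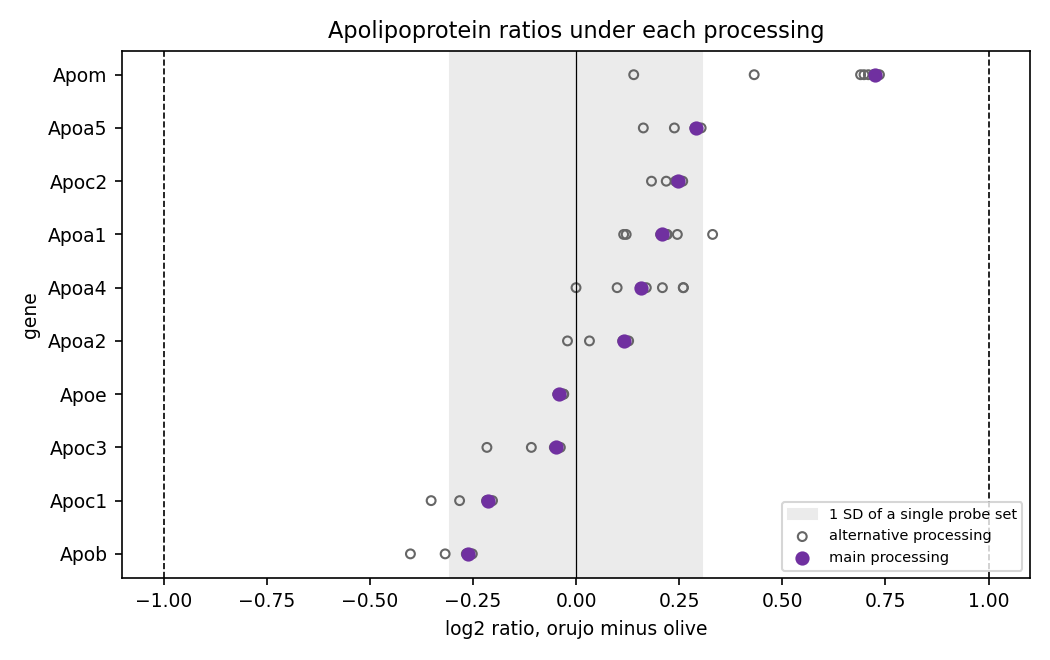
Log2 ratio of each apolipoprotein gene with the main processing (filled) and with each alternative (open); the grey band is 1 SD of a single probe set (0.30) either side of 0, and dashed lines mark 2-fold. Apom moves from 0.72 to 0.14 when its dimmer probe set is used, and Apoa2 passes 0 under quantile normalization.

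A list of other apolipoprotein and related genes had 13 with a probe set, of which 12 were measured. Among the 12 were Apobec1, Apobr (log2 ratio 0.03) and Naxe (−0.29), which do not encode apolipoproteins. The list's median was −0.01, with 6 positive and 6 negative ratios. Past 2-fold were 2 genes upward and 0 downward, against 1.36% and 0.979% of measured genes. The 2 were serum amyloid genes, whose proteins join high-density lipoprotein in the acute phase. Saa2 read 4291.9 and 858.1 (log2 ratio 2.33), and Saa1 read 5175.9 and 2017.4 (1.36). A second Saa1 probe set read 7508.6 and 1259.9 (2.58). This probe set and that of Saa2 carry suffixes that mark sequence shared with other transcripts. Saa3, under 2-fold, read 1027 and 538.7 (0.93). Saa4, the serum amyloid made without stimulation, was lowest at −0.35. Apoa1 (0.21), Apoa2 (0.12) and Apom (0.72) of the same particles had smaller ratios on these arrays than Saa1 and Saa2. Apof was at 0.22, Apon at 0.19 and Apoh at −0.09. Clu, which encodes apolipoprotein J, was at −0.21 in its brightest probe set and between 0.33 and 0.74 in the 3 others, so its sign depends on the probe set. Apobec1, whose enzyme edits Apob messenger RNA, had signals of 77.1 and 79.8 and a log2 ratio of −0.05. Apod was below the floor on both arrays.

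Genes that load, remodel or take up lipoproteins were counted from lists written for this work. Over all measured genes, 47.5% were positive and 2.33% differed at least 2-fold. For assembly and secretion, 12 of 19 measured genes were positive, the median was 0.08 and 0 differed at least 2-fold. Mttp, which loads lipid onto apolipoprotein B, read 824.7 and 737.4 (log2 ratio 0.16), opposite in sign to Apob. Sec24c, of the vesicle coat that exports secretory cargo, was highest at 0.45, and Ces1d, a carboxylesterase, lowest at −0.81, though its other probe sets were at −0.17 and 0.03. For remodelling in plasma, 8 of 13 were positive and the median was 0.26. Angptl4, an inhibitor of lipoprotein lipase, was the 1 member at least 2-fold higher (1.04), and Lpl, the lipase that Apoc2 activates, was lowest at −0.67. The Angptl4 probe set carries a suffix that marks shared sequence, and Lpl had low signals of 93.3 and 148.6. Another probe set of each was below the floor on both arrays. For receptors and lipid efflux, 6 of 11 were positive and the median was 0.04. Sdc1, a heparan sulphate proteoglycan that clears remnants, was the 1 member at least 2-fold higher (1.17), and Pdzk1, the adaptor of the receptor Scarb1, was lowest at −0.74. Scarb1, the receptor for high-density lipoprotein, was at 0.36.

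Transcription factors known to act on apolipoprotein genes had a median of 0.12 over 26 measured genes. Of these, 17 were positive, 1 was past 2-fold upward and 1 downward, against 47.5%, 1.36% and 0.979% of all measured genes. Hnf4a, a nuclear receptor of hepatocyte identity, was at 0.18 in its brightest probe set and between −0.04 and 0.49 in the others. Ppargc1a, a coactivator of Hnf4a, read 144.7 and 57.2 (1.34). Its other measured probe set was at 0.85, under 2-fold, so the count upward depends on the probe set. Nr1d1, the clock repressor that also acts on Apoc3, read 59.8 and 262.3 (−2.13), while Apoc3 was at −0.05.

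**Figure D5:**
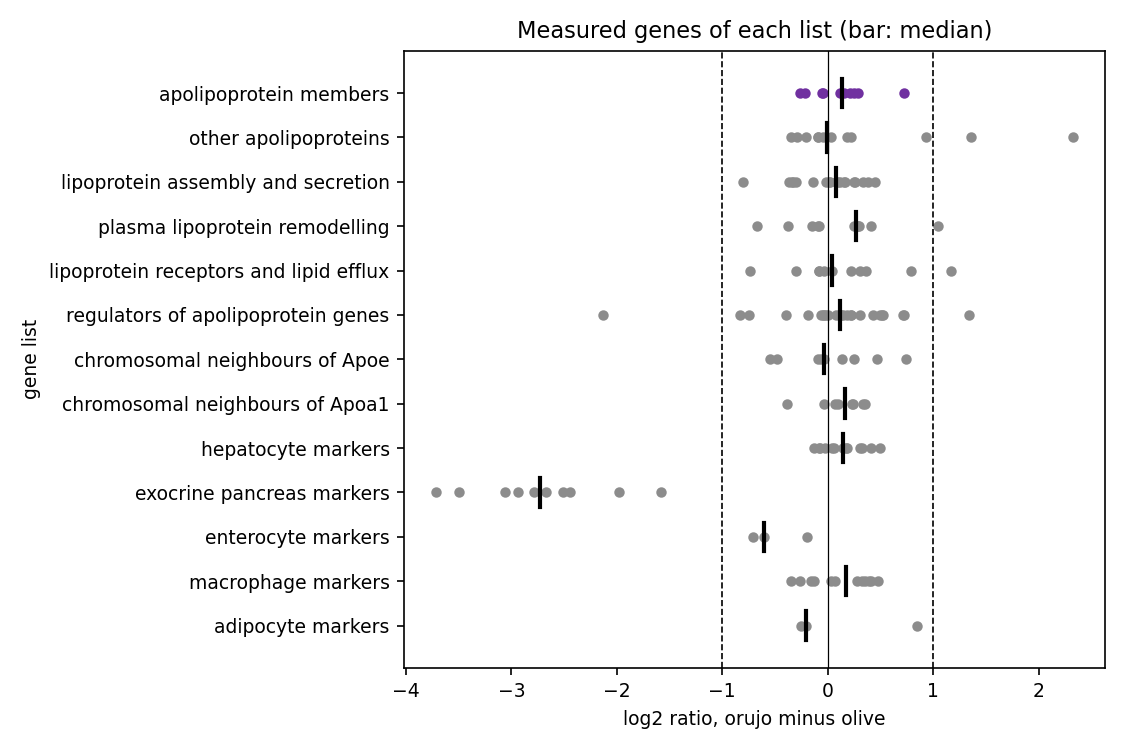
Log2 ratio (orujo minus olive) of each measured gene in each list, with the list's median as a black bar and 2-fold as dashed lines; the apolipoprotein genes are in purple. All 10 measured pancreas markers lie at or below −1.58, and the apolipoprotein genes between −0.26 and 0.72.

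Hepatocyte markers marked both arrays as liver: 13 of 13 exceeded the floor on each, with a median log2 ratio of 0.14, between Tat at −0.13 and Arg1 at 0.49. The median of the apolipoprotein genes was 0.14 too. Exocrine pancreas markers summed to 951.2 signal units on the orujo array and 6225.4 on the olive array. Of those measured, 10 of 10 were at least 2-fold lower (median −2.73, from Ctrb1 at −3.71 to Cela1 at −1.58), against 0.979% of measured genes. Between these lay Cpa1 at −3.50, Cela2a, Clps, Cela3b, Cpb1, Prss2, Cel, and Reg1 at −1.98. Enterocytes also make Apoa4 and Apob; of 10 enterocyte markers, 6 were below the floor on both arrays, namely Vil1, Lct, Cdx1, Cdx2, Rbp2 and Slc5a1. The 10 summed to 764.4 and 932.6, and the 3 measured ran from Anpep at −0.71 to Fabp2 at −0.20. The remaining marker, Treh, exceeded the floor only on the orujo array (88.3 against 34.8), where it was higher by a bound of 1.31 on the log2 scale. Macrophages also make Apoe; 12 of 13 of their markers were measured, and the 13 summed to 4736.6 and 4240.2. The 12 had a median of 0.18, from Cd68 at −0.35 to C1qc at 0.47. Of 6 adipocyte markers, 3 were measured, summing over the 6 to 219.1 and 185.8. Retn was at −0.25 and Fabp4 at 0.84. The control probe set for the 5′ part of 18S ribosomal RNA was at 2.54, that for its middle part at 2.48 and that for its 3′ part at 0.34. The controls for Gapdh lay between 0.09 and 0.15. Those for beta-actin were at −0.27 (3′ part), −0.02 (5′ part) and 0.01 (middle part). The part of these differences in the apolipoprotein ratios was not tested.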

How the data were processed

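Probe set signals of 2 Affymetrix arrays, 1 per diet, were taken from the deposited value table. The deposited values are intensities on a linear scale that the authors had summarised per probe set; the sources used here name neither software nor detection calls. From the values, both arrays had been scaled to a 2% trimmed mean of 100.05 and 100.05. Precision is limited by the number of arrays.

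The 64 control probe sets were set apart, and each array was brought to a common trimmed mean over the other 22626 (factors 1.001 and 0.999). Lower values were set to the floor before taking log2 (Python 3.11.15, numpy 2.4.6, pandas 2.3.3). A gene was represented by its brightest probe set. Probe sets had 1 symbol (20380), several (691) or none (1555); genes were named only from the first, and Entrez identifiers of 20351 matched RefSeq of GRCm38.p6. Printed signals are the deposited ones. Alternatives were no scaling, median centring, quantile normalization, loess (span 0.4), adding the floor before log2 in place of raising values to it, a floor from percentile 25 or 75, the mean or the dimmest of a gene's probe sets, no probe sets of shared sequence, and a limit of 1.5-fold. The calculation was tested on simulated data with planted differences larger than any apolipoprotein ratio here. That test does not bear on differences as small as these ratios.

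The members and lists were chosen with earlier results of these data known. The text names all members, each list's highest and lowest measured gene, those past 2-fold and the measured chromosomal neighbours; other names were chosen after their values were seen. The comparison with genes above a signal of 1000 was also added then.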

Additional observations from a re-analysis of the deposited data

How the results depend on the processing

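The count of apolipoprotein genes past 2-fold was 0 under each of the 10 alternatives for scaling, floor and choice of probe set, and 1 (Apom) with the limit at 1.5-fold. Their median log2 ratio, 0.14 with the main processing, ran from −0.01 (quantile normalization) to 0.18 (probe sets of shared sequence left out). Its sign thus depended on the processing. Single ratios moved by less than the SD of a single probe set, 0.30, except that of Apom (0.14 with its dimmer probe set). That SD is larger than 9 of the 10 ratios in size, so a change of sign can stay within it. For the 7 genes with 1 probe set, the alternatives in the choice of probe set could not change the ratio. A floor from percentile 25 or 75 left each measured apolipoprotein ratio as it was. Leaving out the scaling (factors 1.001 and 0.999) or centring on the median hardly moved the ratios. Signs differed from the main value only under quantile normalization, for Apoa2 (−0.02) and Apoa4 (0). Over all measured genes the count past 2-fold was 155, against 418 with a floor taken at the 25th percentile and 78 with 1 taken at the 75th, where 9 apolipoprotein genes were measured. The median of the adipocyte markers, −0.20 over 3 genes, was 0.32 under the lower of these floors. Without replicate arrays, nothing here measures variation between animals, and the signal of Apoe lies nearest to the floor.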

Other observations

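Sdc1, the proteoglycan receptor for remnant particles, was read by 4 probe sets, all higher on the orujo array, at log2 ratios of 1.17, 1.29, 1.14 and 0.49. Its signals were 745.3 and 332.5 in the brightest of them. Lsr, the lipolysis-stimulated lipoprotein receptor, was at 0.79, with signals of 398.2 and 231.4. Both were singled out after their values were seen, and with 1 array per diet neither was tested.

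Nectin2, a neighbour of Apoe, was read by 2 probe sets at 0.74 and 0.72, closer to each other than the 2 probe sets of Apom (0.72 and 0.14). The Nectin2 signals, between 42.4 and 104.9, were lower than those of Apom, between 727 and 1252.3. Cebpb, a regulator in the acute phase, was at 0.72 and 0.52, and Cebpa at −0.39. These are values of single arrays with no replicate.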
